A study of Arabidopsis thaliana with 28 samples.

Results

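AT4G17470 is an Arabidopsis thaliana gene of the palmitoyl thioesterase family, read on the array by 1 probe set of its own. It was selected on its measured shoot signals, as the annotated gene with the largest rise there over the 0.25 h arrays, so its shoot values are described here without a test, and only its root values, which the choice did not use, were tested. The spread in those tests was estimated from all 28 arrays, shoots included. It is 1 of 13286 genes that have a probe set assigned to them alone, and 1 of 9978 such genes that passed the filter on dim probe sets. Palmitoyl thioesterases are hydrolases that cut the thioester bond between a fatty acid and a protein cysteine, which makes protein palmitoylation reversible, and are best known from the lysosomal enzymes of animals. AT4G17470 is assigned to the family by sequence, and in Arabidopsis its transcript has been described as responsive to jasmonate, the oxylipin hormone of wounding and defence. Jasmonate is made from a plastid fatty acid, is conjugated to isoleucine, acts by removing repressors from MYC transcription factors, and is switched off by oxidases and other modifying enzymes.

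The samples were shoots and roots of Col-0 seedlings grown on Murashige and Skoog medium under 16 h days. At an age of 16 days, 3 h after lights on, all plants were exposed for 15 min to a dry air stream that removed 10% of their fresh weight, and were afterwards held in closed containers. Shoots and roots were taken at 0.25, 0.5, 1, 3, 6, 12 and 24 h, with 2 ATH1 arrays for each tissue and time, 28 in all. Every group had been dried, no untreated arrays were used here, and 0.25 h is the time that later times are compared with. Time after drying therefore runs together with time of day, and 24 h lies near the clock time of 0.25 h. Whether the paired arrays of a group stem from separate cultures is not stated, so the p-values reflect no more than the spread of these samples, possibly a technical one. Each array holds RNA of a whole organ, in which fewer cells of a type and less RNA per cell cannot be told apart.

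Array medians ranged from 36.6 to 40.3 signal units in shoots and from 43.1 to 46.7 in roots; precision is limited by the number of arrays. Replicates correlated across probe sets at r = 0.976 to 0.985 in 12 groups, but at 0.953 in shoots at 0.5 h and 0.955 in shoots at 1 h. There replicate 1 of 0.5 h was closer to replicate 2 of 1 h (r = 0.982), and replicate 2 of 0.5 h to replicate 1 of 1 h (r = 0.982), and these 4 arrays are treated with caution below. The tissue labels were checked with marker genes. PSAE-1, a photosystem I subunit and the 1 measured gene of 22 listed shoot markers, had signals of 4183 to 6277 in shoots and 18.6 to 121 in roots. The summed signal of the 4 measured root markers of 13 listed was 432 to 2047 in shoots and 3389 to 4392 in roots. Nearly all of the shoot sum was PYK10, with 408 to 2026 in shoots and 3044 to 3995 in roots. The single root markers are described further below.

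In shoots, AT4G17470 started near the bottom of the array and reached its upper few percent within 3 h. At 0.25 h its signals were 2.26 and 2.06, which is percentile 11.8 of all probe sets on average. At 0.5 h they were 21.7 and 42.2, and at 1 h they were 70.1 and 13.4. Both early times thus lay above both 0.25 h arrays, while the 0.5 h and 1 h arrays overlapped each other. At 3 h the signals were 927 and 1082, and at 6 h they were 914 and 797. The 12 h arrays read 463 and 303, and the 24 h arrays 242 and 192. From 3 h on, no array of a later time reached an array of the time before it, so the signal was highest at 3 h and lower at each following time. Even the lowest array of 24 h lay above all 4 arrays of 0.5 h and 1 h.

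**Figure D1:**
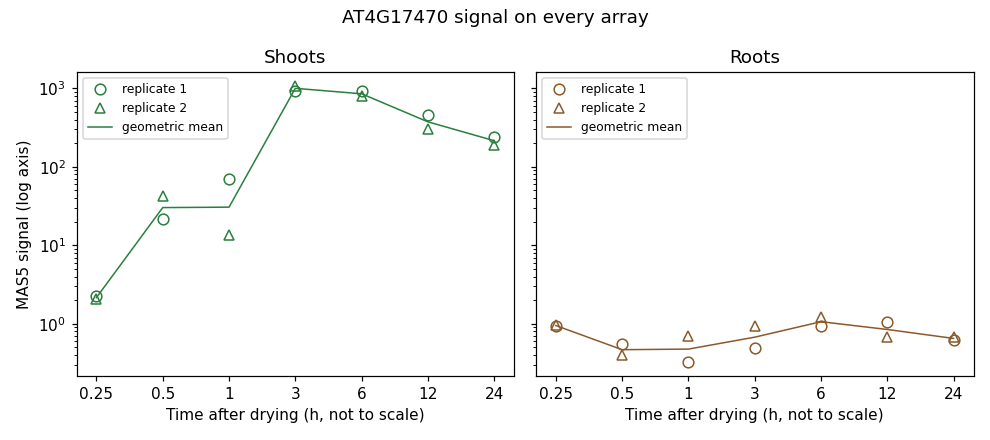
MAS5 signal of AT4G17470 on each of the 28 arrays (log axis) against time after drying in h, shoots left and roots right, with circles for replicate 1, triangles for replicate 2 and a line through the geometric means. Shoot signals lie near 2 at 0.25 h and near 1004 at 3 h, and root signals lie between 0.326 and 1.22 throughout.

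The group means in shoots were 2.16 ± 0.139 at 0.25 h, 32.0 ± 14.5 at 0.5 h, 41.7 ± 40.1 at 1 h, 1004 ± 110 at 3 h, 855 ± 83.0 at 6 h, 383 ± 114 at 12 h and 217 ± 35.0 at 24 h (SD, n = 2 arrays each). The large SD of 1 h comes from its arrays of 70.1 and 13.4. On the scale of log2(signal + 1.93), the difference from 0.25 h was 2.98 at 0.5 h, 3.02 at 1 h, 7.94 at 3 h, 7.71 at 6 h, 6.52 at 12 h and, last, 5.73 at 24 h. All 4 possible pairs of a later and a 0.25 h array gave differences of 7.79 to 8.08 at 3 h and of 5.53 to 5.93 at 24 h, but of 1.87 to 4.17 at 1 h. These are descriptions of values that the choice of the gene used.

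The size of the fold depends on a denominator that lies in the range of the dimmest probe sets. As a ratio of mean signals, the 3 h value was 464 times the 0.25 h value, and the 24 h value was 100.3 times. Both 0.25 h signals lay below the 30th percentile of their own arrays, at 13.4 and 12 signal units. Set against the mean of those percentiles in place of the measured signals, the signal was 79.1 times as high at 3 h, 67.4 at 6 h, 29.6 at 12 h and 17.0 at 24 h. With a pseudocount at the 30th percentile, the log2 differences were 6.02 at 3 h and 3.88 at 24 h, and without one they were 8.86 and 6.64.

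Between neighbouring times, the shoot signal changed by 4.92 on the log2 scale for 3 h against 1 h. It then differed by -0.23 for 6 h against 3 h, by -1.18 for 12 h against 6 h and by -0.79 for 24 h against 12 h. The step for 1 h against 0.5 h was 0.04, and these arrays overlapped. All arrays of 0.5 h and 1 h lay between those of 0.25 h and those of 3 h. The rise therefore had an early step before these arrays and a larger one after them. They split across their time labels, as described below, so the step of 0.04 shows neither a plateau nor an order. The size of the early step depends on the dim 0.25 h signals. Against the 30th percentile of the 0.25 h arrays, the signal was 2.39 times as high at 0.5 h and 2.42 times at 1 h.

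The early shoot arrays split for this gene as they do across the whole array. The lower signals, 21.7 and 13.4, were those of replicate 1 at 0.5 h and replicate 2 at 1 h, and the higher ones, 42.2 and 70.1, those of replicate 2 at 0.5 h and replicate 1 at 1 h. As 1 group, the 4 arrays had a mean signal of 36.9 ± 25.2 (SD, n = 4) and a log2 difference of 3.00 from 0.25 h. Whether the labels of these arrays are crossed was not tested, and no order between 0.5 h and 1 h is read from them.

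In roots, AT4G17470 stayed at the bottom of the array at every time. Its signals at 0.25 h were 0.951 and 0.953. They were 0.547 and 0.402 at 0.5 h, 0.326 and 0.698 at 1 h, and 0.486 and 0.943 at 3 h. Later they were 0.931 and 1.22 at 6 h, 1.05 and 0.683 at 12 h, and 0.628 and 0.678 at 24 h. The highest of the 14 root signals, 1.22, was below the lower of the shoot signals at 0.25 h, 2.06. The mean percentile on the array was between 2.96 and 6.42 in the root groups.

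No later time passed limma's test against 0.25 h in roots. The log2 differences from 0.25 h were -0.26 at 0.5 h, -0.24 at 1 h, -0.13 at 3 h, 0.06 at 6 h, -0.05 at 12 h, and -0.16 at 24 h, each ± 0.45 (SE, n = 2 arrays per group), and limma's Benjamini-Hochberg adjusted p lay between 0.82 and 0.97. Of these 6 tests 0 had an unadjusted p under 0.05, and limma's F test over the root course gave an adjusted p of 0.99. For comparison, 27.6% of the 18190 tested probe sets passed that F test in roots. Between 0.5% (24 h) and 5.32% (6 h) of probe sets were called higher in a root contrast, and between 1.71% (24 h) and 5.01% (6 h) lower. Signals below the pseudocount of 1.93 move little on this scale, so a change among them was not detectable here. These root tests therefore cannot tell an unchanged signal from a changed one, and the shares above are no yardstick for them. The SE of 0.45 rests on 1 spread shared by all 28 arrays, shoots included. On the log2 scale the SD of the gene was at most 0.18 in a root group, but 0.64 and 1.58 in shoots at 0.5 h and 1 h. These p-values therefore do not measure the scatter among root arrays alone.

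**Figure D2:**
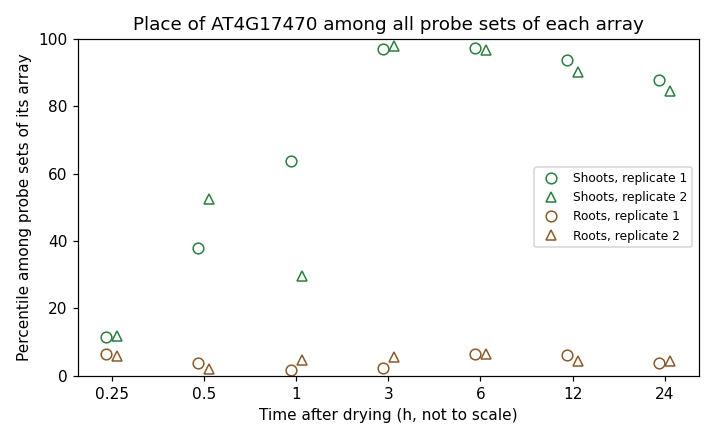
Percentile of the AT4G17470 signal among all probe sets of the same array (vertical axis) against time after drying in h (horizontal axis), 1 point per array, shoots in green and roots in brown. The mean percentile of shoots is 11.8 at 0.25 h, 97.4 at 3 h and 86.1 at 24 h, while root points stay under 10.

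Ordered by mean signal over all 14 groups, shoots at 3 h came first, followed by shoots at 6 h, 12 h and 24 h, none of which overlapped its neighbour in the order. Shoots at 1 h and 0.5 h came next and overlapped each other. Shoots at 0.25 h, 2.16, lay above every root group, the highest of which was 6 h at 1.07. The 7 root groups came last, and each overlapped its neighbour in the order.

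The percentile shows the same course without any pseudocount. AT4G17470 stood on average at percentile 45.2 at 0.5 h, 46.8 at 1 h, 97.4 at 3 h, 96.9 at 6 h, 91.9 at 12 h and 86.1 at 24 h in shoots. Among all 22746 probe sets, 673 lay at or below the 10th percentile on all 14 root arrays. Of those, 12 lay at or above the 90th percentile on both arrays of at least 1 shoot group. AT4G17470 was the 1 probe set of the 12 that was also at or below the 15th percentile in shoots at 0.25 h. These limits were set after the values had been seen.

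Among the 10 genes with the largest shoot rises, AT4G17470 was the furthest above 0.25 h at 24 h. Its shoot difference ranked 1st of 18190 probe sets at 3, 6 and 24 h and 2nd at 12 h, but 29th at 0.5 h and 31st at 1 h. Just outside the rule, the next largest rise was that of AT5G62360, 6.81 at 6 h. It was followed by the cold-regulated genes COR27 (6.05 at 6 h) and COR15A (6.0 at 3 h), of which COR15A encodes a protective chloroplast protein. The thaumatin family gene AT1G20030 reached 5.86 at 6 h, AT4G30650 reached 5.51, AT4G33980 reached 5.47 and AT1G56300 reached 5.27, all at 6 h. AT2G23910 and AT4G34950 had their largest differences, 5.18 and 4.99, at 12 h. At 24 h these 9 genes had log2 differences of -1.43 (AT4G34950) to 1.19 (COR15A), against 5.73 for AT4G17470. Genes with smaller rises also stayed up, among them JRG21 (4.46 at 3 h and 3.49 at 24 h) and JAL23 (3.42 at 3 h and 2.31 at 24 h), which were picked after their values were seen. All these differences share the same 0.25 h arrays.

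The genes whose pattern was most like it were, as their choice favours, higher in shoots at 3 to 12 h than at any earlier shoot time or in roots. Their rises were smaller. Likeness was measured as Pearson's r of log2(signal + 1.93) over the 14 group means, which share arrays and scaling, and is a description. Over 9977 other genes the median r was -0.38, and 103 genes had an r above 0.9. The 10 highest, with r from 0.966 to 0.952, were AT1G26130, JAL23, PGRL1B, BGLU44, AT3G62550, Fes1B, AT5G39790, HL, AT3G60810 and AT1G33780. JAL23 is a jacalin-related lectin, PGRL1B takes part in cyclic electron flow around photosystem I, BGLU44 is a beta-glucosidase, and Fes1B is a cofactor of Hsp70 chaperones.

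Their largest shoot differences from 0.25 h were between 0.67 (AT1G33780) and 4.78 (AT3G62550) on the log2 scale, all below the 7.94 of AT4G17470. In all 10 the shoot means of 3, 6 and 12 h lay above those of 0.25 to 1 h and above every root mean of the gene, and the 24 h mean lay below the 12 h mean. Since the 10 were picked by r over these same means, that shape follows largely from the choice. The shoot mean was highest at 3 h for 3 of the 10, at 6 h for 6 and at 12 h for 1. JAL23 had mean signals of 61.5 at 0.25 h and 675 at 3 h in shoots, a log2 difference of 3.42, and still 2.31 at 24 h. AT3G62550 had a difference of 4.78 at 6 h but 1.06 at 24 h. None of the 10 is also among the 5 most alike over the 7 shoot means alone, which were AT4G03200 (r = 0.992), AT2G18670 (0.989), AT4G17020 (0.988), AT1G77370 (0.987) and AT1G30130 (0.987). By Spearman's rho over the 14 means, 0 of the 10 were among the top 10, so the membership of this set depends on the measure.

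**Figure D3:**
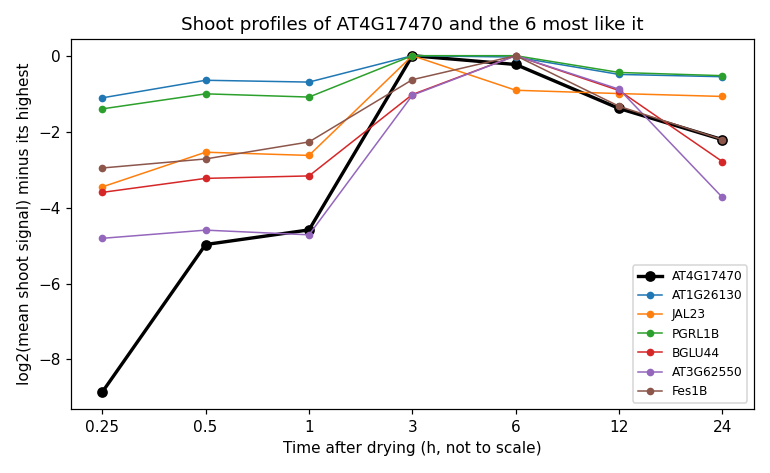
Shoot profiles of AT4G17470 (black) and of the 6 genes with the highest Pearson r over the 14 group means, as log2 of the mean shoot signal minus its highest value (vertical axis) against time after drying in h. All 7 curves are at their highest at 3 h or 6 h, and the black curve starts lowest.

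The palmitoyl thioesterase family has 7 listed genes, all with a probe set, of which 6 passed the filter. In the gene table AT4G17470, AT4G17480 and AT4G17483 follow each other directly, as do AT5G47330 and AT5G47340, with AT5G47350 a further gene away. Of the 5 tested members other than AT4G17470, 2 rose in shoots at 3 h, where 14.9% of all probe sets were called higher, and 1 rose at 6 h, where 17.7% were. None was called lower in shoots by limma, where 2.85% (0.5 h), 3.13% (1 h), 13.9% (3 h), 15.8% (6 h), 11.7% (12 h) and 5.63% (24 h) of all probe sets were, and 0 of the 30 shoot tests had an unadjusted p under 0.05 with a lower signal. With a higher signal, 8 of these 30 did. In either direction, 4246 (0.5 h) to 7596 (6 h) of the 18190 probe sets did in a shoot contrast. The median log2 change of these members was 0.60 at 3 h and 0.62 at 6 h, against -0.02 and 0.01 over all probe sets. In roots 0 of the 30 tests passed by limma, and 0 had an unadjusted p under 0.05. Of all probe sets, 0.5% (24 h) to 5.32% (6 h) were called higher in a root contrast and 1.71% (24 h) to 5.01% (6 h) lower. The absence of calls among so few members lies near those shares.

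AT3G60340, the only family member on chromosome 3, had shoot signals of 186 and 188 at 3 h and 200 and 226 at 6 h, against 116 and 151 at 0.25 h. All 4 later arrays lay above both 0.25 h arrays. It rose by 0.49 ± 0.15 at 3 h (limma, adjusted p = 0.017) and by 0.67 ± 0.15 at 6 h (limma, adjusted p = 0.0015). It passed limma's F test over the shoot course (adjusted p = 0.0013), as did 50.4% of all probe sets. The 3 h call was lost without replicate 1 of the 0.25 h shoots (0.30, limma, adjusted p = 0.24) and without either array of 3 h, and the 6 h call held under all 24 alternatives run. At 24 h its shoot signals, 141 and 128, lay between those of 0.25 h.

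AT5G47330 had shoot signals of 32.6 and 36.2 at 3 h, against 9.98 and 5.96 at 0.25 h. It rose by 1.90 ± 0.70 at 3 h (limma, adjusted p = 0.048), and this call was lost under 15 of 24 alternatives, with adjusted p up to 0.22. Its early arrays paired as those of AT4G17470 did, with 15.7 for replicate 1 of 0.5 h and 15.0 for replicate 2 of 1 h, and with 47.2 and 57.4 on the other arrays of these times. In roots its signals were all between 0.257 and 7.37. Over the 14 means its r with AT4G17470, 0.87, was the highest of the family, followed by AT3G60340 (0.69), while AT4G17480 had 0.22. Over the 7 shoot means the order was another, with 0.75 for AT4G17480, 0.66 for AT4G17483, 0.64 for AT3G60340 and 0.61 for AT5G47330. There, AT5G47340 had -0.11 and AT5G47350 -0.57.

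The adjacent copies had far smaller shoot differences. AT4G17480 had 23.2 and 27.8 in shoots at 3 h, against 7.94 and 10.4 at 0.25 h, so these arrays did not overlap. Its difference of 1.31 ± 0.53 did not pass (limma, adjusted p = 0.072), and its 24 h arrays lay far apart, at 30.6 and 4.88. AT4G17483 had 19.2 and 27.1 at 3 h, against 17.3 and 12 at 0.25 h, a difference of 0.60 ± 0.23 that did not pass (limma, adjusted p = 0.055). Over all arrays AT4G17480 had 4.88 to 30.6 in shoots and 8.46 to 31.0 in roots, and AT4G17483 had 12 to 27.1 in shoots and 15.5 to 27.9 in roots. AT5G47340 had no call (limma, adjusted p from 0.28 to 0.99 over both tissues), and AT5G47350, which the filter removed, had shoot signals from 1.81 to 13.1 and root signals from 2.47 to 11.3.

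**Figure D4:**
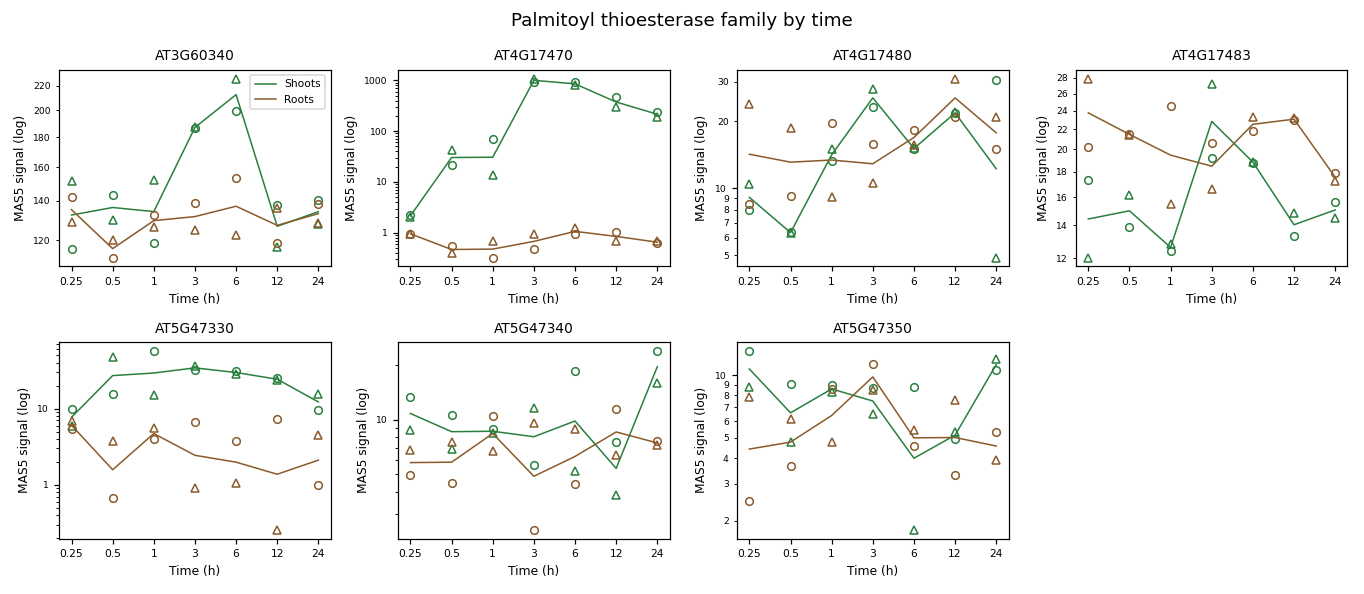
MAS5 signals of the 7 palmitoyl thioesterase family genes (log axes, each panel with its own range) against time after drying in h, with circles for replicate 1, triangles for replicate 2 and lines through the geometric means, shoots in green and roots in brown. AT4G17470 spans 2.06 to 1082 in shoots, and the adjacent AT4G17480 and AT4G17483 stay between 4.88 and 31.0 over both tissues.

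Of the 5 nearest genes on each side of AT4G17470, 5 had a probe set of their own. Besides the family members, AT4G17486, a gene of the PPPDE peptidase family, rose in shoots by 0.50 ± 0.14 at 3 h (limma, adjusted p = 0.013), 1.09 ± 0.14 at 6 h (limma, adjusted p = 7.9e-06) and 0.75 ± 0.14 at 12 h (limma, adjusted p = 6.4e-04). The call at 3 h was lost without replicate 1 of 0.25 h or replicate 2 of 3 h. Its shoot signals were 170 and 173 at 6 h, against 78.0 and 80.6 at 0.25 h, with no overlap. In roots it rose by 0.46 ± 0.14 at 6 h (limma, adjusted p = 0.047), a call lost under 12 of 24 alternatives. AT4G17420 and AT4G17430 had 0 calls by limma in 24 tests, with log2 differences from -0.42 to 0.24. In those tests 0 of 12 in shoots and 3 of 12 in roots had an unadjusted p under 0.05. HAT1, ERF6, ERF-1, AT4G17440 and the pseudogene AT4G17450 were not analysed here.

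Of the 52 listed jasmonate genes, 11 were measured, all of which passed the filter. They were 1 of 14 synthesis genes, 5 of 11 conjugation and turnover genes, 2 of 16 signalling genes and 3 of 11 response genes, so most of the pathway was not analysed here. Over all later times, 9 of the 11 rose and 2 fell at some time in shoots, and 6 rose and 2 fell in roots. The share of all probe sets called at any later time was not computed, and it cannot be smaller than the single-time shares given below. Over the time course, 50.4% of all probe sets passed limma's F test in shoots and 27.6% in roots. In shoots, 2 rose at 0.5 h (5.09% of all probe sets were called higher), 2 at 1 h (5.17%), 7 at 3 h (14.9%), 4 at 6 h (17.7%), 7 at 12 h (14.7%) and 6 at 24 h (5.39%). Those that fell, 2 in number, did so at 6 h (15.8% called lower). Their median log2 change in shoots was 0.45 at 0.5 h, 0.41 at 1 h, 1.70 at 3 h, 0.68 at 6 h, 2.16 at 12 h and 0.81 at 24 h, while the median over all probe sets lay between -0.02 and 0.07. The counts in shoots were the same, 9 and 2, when the 4 early shoot arrays were left out.

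In roots, 3 rose at 0.5 h (2.13% of all probe sets were called higher), 4 at 1 h (3.48%), 3 at 3 h (1.75%), 3 at 6 h (5.32%), 2 at 12 h (3.62%) and 1 at 24 h (0.5%). There, 2 fell at 0.5 h (2.68% called lower), 1 at 1 h (3.36%), 0 at 3 h (1.83%) and 1 at 12 h (4.26%). Without replicate 1 of the 0.25 h roots 2 genes rose at some time, and without replicate 2 of that group 3 did, in place of 6. Jasmonate genes were thus called higher in roots, while AT4G17470 itself stayed at or below 1.22 there.

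The synthesis gene measured was OPCL1, a CoA ligase that activates a jasmonate precursor in peroxisomes. It rose in shoots by 2.80 ± 0.49 at 0.5 h (limma, adjusted p = 0.0019), 2.82 ± 0.49 at 1 h (limma, adjusted p = 0.0016) and 1.70 ± 0.49 at 3 h (limma, adjusted p = 0.014). The 1 h call was lost without replicate 1 of that time (1.89, limma, adjusted p = 0.051), and the 3 h call under 3 of 24 alternatives. Its early shoot signals were 236 and 886 at 0.5 h and 888 and 242 at 1 h, against 88.5 and 46.1 at 0.25 h, so they paired across the times as those of AT4G17470 did. With these 4 arrays as 1 group the change was 2.81 (limma, adjusted p = 1.7e-04). OPCL1 was thus highest when AT4G17470 was still at 13.4 to 70.1, and its r with AT4G17470 over the 7 shoot means was 0.03. In roots OPCL1 rose by 1.84 ± 0.49 at 0.5 h (limma, adjusted p = 0.039), a call lost under 6 of 24 alternatives.

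The jasmonate oxidases, which hydroxylate jasmonic acid to an inactive form, were 4 of the 11 measured genes. Over the 7 shoot means their r with AT4G17470 was 0.96 for JRG21, 0.90 for AT5G05600, 0.87 for AT2G38240 and 0.19 for AT3G11180. Of the other jasmonate genes, MYC3 had 0.87 and AT1G52000 0.85. PDF1.2 had 0.37, PDF1.2b 0.21, OPCL1 0.03, JMT -0.05 and MYC4 -0.27. No median over all genes was computed for the 7 shoot means, where AT4G17020, with a largest rise of 0.35, reached 0.988. Over the 14 means the r was 0.71 for JRG21, 0.08 for AT5G05600, 0.53 for AT2G38240 and -0.27 for AT3G11180. JRG21, also known as JOX3, had shoot signals of 111 and 138 at 3 h and 67.8 and 57.4 at 24 h, against 4.63 and 3.08 at 0.25 h. All arrays from 3 h on lay above all earlier ones. It rose by 4.46 ± 0.54 at 3 h (limma, adjusted p = 5.2e-06), 3.64 ± 0.54 at 6 h (limma, adjusted p = 3.0e-05), 3.95 ± 0.54 at 12 h (limma, adjusted p = 2.1e-05) and 3.49 ± 0.54 at 24 h (limma, adjusted p = 4.5e-04). These 4 calls held under every alternative run. In roots JRG21 had 27.9 and 94.3 at 6 h, against 0.873 and 1.40 at 0.25 h, a rise of 4.13 ± 0.54 (limma, adjusted p = 5.5e-05). So its root signal left the bottom of the array, which that of AT4G17470 did not.

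AT2G38240, also known as JOX4, had shoot signals of 348 and 313 at 3 h, against 12.4 and 14 at 0.25 h. It rose by 4.46 ± 0.58 at 3 h (limma, adjusted p = 1.1e-05), 3.65 ± 0.58 at 6 h (limma, adjusted p = 6.1e-05) and 2.42 ± 0.58 at 12 h (limma, adjusted p = 0.0041). At 24 h its shoot signals were 31.0 and 19.3, a difference of 0.81 ± 0.58 that did not pass (limma, adjusted p = 0.43). In roots it rose by 3.11 ± 0.58 at 1 h (limma, adjusted p = 0.0032).

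AT5G05600, also known as JOX2, had shoot signals of 248 and 249 at 3 h, against 28.0 and 21.8 at 0.25 h. It rose by 3.23 ± 0.56 at 3 h (limma, adjusted p = 2.4e-04), 2.87 ± 0.56 at 6 h (limma, adjusted p = 5.3e-04) and 2.62 ± 0.56 at 12 h (limma, adjusted p = 0.0017). Its early arrays paired across times as well, with 58.4 and 39.4 against 220 and 236. In roots it had 322 and 394 at 0.5 h, against 67.3 and 72.9 at 0.25 h, and rose by 2.31 ± 0.56 (limma, adjusted p = 0.023), a call lost under 4 of 24 alternatives. Its shoot calls at 1 h and 24 h were lost under 18 of 22 and 16 of 23 alternatives.

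AT3G11180, also known as JOX1, had no call in shoots, where its signals ranged from 4.62 to 12.4. In roots it rose by 1.5 ± 0.29 at 1 h (limma, adjusted p = 0.004) and by 1.22 ± 0.29 at 3 h (limma, adjusted p = 0.023, lost under 3 of 24 alternatives). All 4 oxidase genes therefore passed in roots at 1 h, with JRG21 at 2.62 ± 0.54 (limma, adjusted p = 0.0063) and AT5G05600 at 2.09 ± 0.56 (limma, adjusted p = 0.031). The calls of JRG21, AT5G05600 and AT3G11180 were lost without replicate 1 of the 0.25 h roots, and those of JRG21, AT5G05600 and AT2G38240 without replicate 2 of the 1 h roots.

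**Figure D5:**
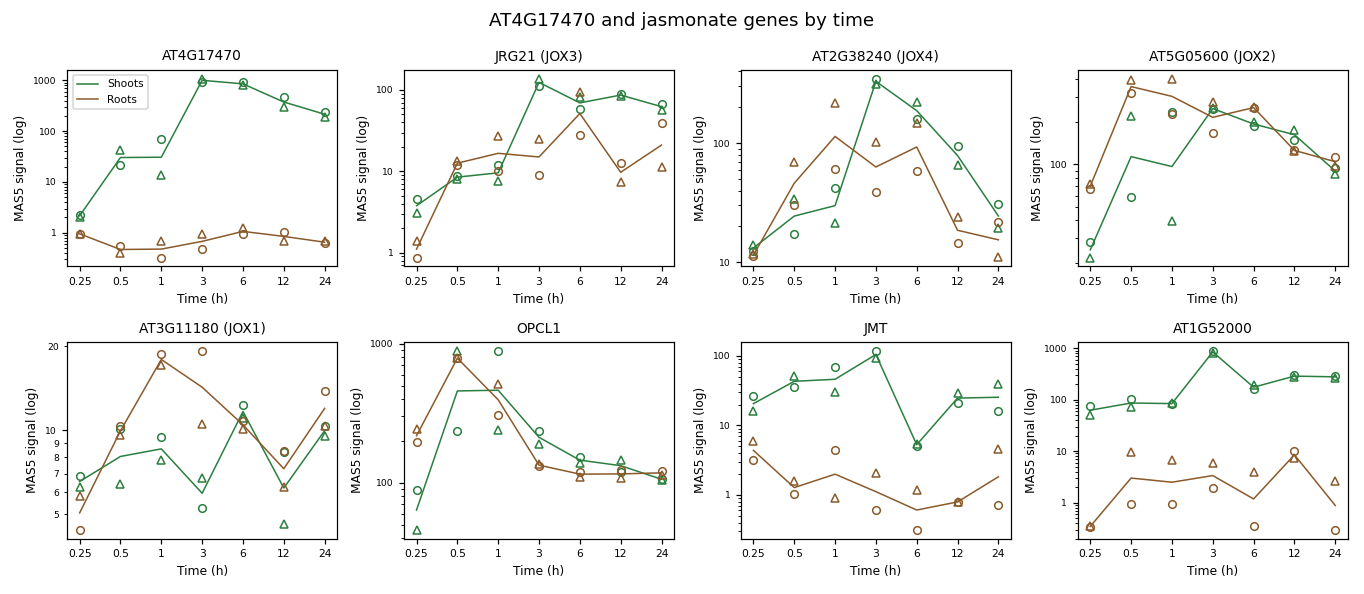
MAS5 signals of AT4G17470 and 7 jasmonate genes (log axes, each panel with its own range) against time after drying in h, with circles for replicate 1, triangles for replicate 2 and lines through the geometric means, shoots in green and roots in brown. JRG21 and AT2G38240 have their highest shoot arrays at 3 h, as AT4G17470 does, but unlike it they also have raised root arrays.

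JMT, which methylates jasmonic acid, moved both ways in shoots. Its signals were 118 and 92.9 at 3 h and 5.12 and 5.45 at 6 h, against 26.3 and 16.1 at 0.25 h, with no overlap between these times. It rose by 2.24 ± 0.50 at 3 h (limma, adjusted p = 0.0021) and had -1.64 ± 0.50 at 6 h (limma, adjusted p = 0.015). The call at 3 h was lost without a pseudocount (limma, adjusted p = 0.052), and that at 6 h under 4 of 24 alternatives. AT4G17470 had 914 and 797 at 6 h, so the genes part at that time.

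Of the 16 listed signalling genes, 2 were measured, the MYC transcription factors MYC3 and MYC4. MYC4 had -0.75 ± 0.16 in shoots at 6 h (limma, adjusted p = 0.0015) and -0.90 ± 0.16 in roots at 0.5 h (limma, adjusted p = 0.0043, lost without replicate 2 of 0.5 h). MYC3, which is outside the rule for named genes and is given to complete the list, rose in shoots by 0.83 ± 0.10 at 12 h (limma, adjusted p = 5.3e-06). It had -0.57 ± 0.10 in roots at 0.5 h (limma, adjusted p = 0.0032).

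The response genes rose at different times. AT1G52000, a jacalin-related lectin gene, had shoot signals of 887 and 806 at 3 h, against 75.5 and 51.5 at 0.25 h, and rose by 3.72 ± 0.57 (limma, adjusted p = 6.2e-05). Its r with AT4G17470 over the 14 means was 0.92, the highest of the 11 jasmonate genes, and its root signals were between 0.297 and 9.97. It was 2.12 ± 0.57 above 0.25 h at 24 h (limma, adjusted p = 0.021), a call lost under 5 of 23 alternatives. The defensin gene PDF1.2 had 352 and 436 at 12 h, against 23.4 and 27.5 at 0.25 h, and rose by 3.85 ± 0.48 (limma, adjusted p = 7.4e-06). PDF1.2b rose by 4.08 ± 0.58 at 12 h (limma, adjusted p = 3.4e-05), but its probe set ends in _x_at and can share signal with PDF1.2. At 3 h, when AT4G17470 was highest, PDF1.2 had -0.23 ± 0.48 (limma, adjusted p = 0.76).

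Of the 4 measured root markers, PYK10 alone was called higher in shoots, and the others were dim there. PYK10, a beta-glucosidase of endoplasmic reticulum bodies, rose there by 1.25 ± 0.28 at 3 h (limma, adjusted p = 0.0023), 1.69 ± 0.28 at 6 h (limma, adjusted p = 1.0e-04) and 1.59 ± 0.28 at 12 h (limma, adjusted p = 3.0e-04). EXPA7, a root hair expansin, had -1.42 ± 0.39 in shoots at 0.5 h (limma, adjusted p = 0.033) and -1.56 ± 0.39 at 12 h (limma, adjusted p = 0.0061), and at 3 h, when AT4G17470 was highest, -0.41 ± 0.39 (limma, adjusted p = 0.49). EXPA18, also a root hair expansin, had no call in shoots, with -0.57 ± 0.29 at 3 h (limma, adjusted p = 0.15). On the shoot arrays EXPA7 had 1.34 to 17.4 and EXPA18 7.81 to 22.9. These signals lie in or near the range under the 30th percentile of 11.3 to 15.2 units, so their shoot differences are uncertain. The root peroxidase AT5G17820 had no call in shoots either, and stayed at 0.590 to 3.96 on the shoot arrays, against 120 to 506 on the root arrays. On the root arrays, where PYK10 had 3044 to 3995, AT4G17470 had at most 1.22.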

How the data were processed

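Each deposited value is a linear signal intensity of 1 probe set, made with MAS5 per the submitters' processing notes (its version is not given in the sources used). The trimmed mean of every array was 100.01, so a change common to most transcripts is hidden. From these, log2(signal + 1.93) was computed, the pseudocount being the 10th percentile of all values, and 64 control probe sets were removed. Probe sets above the 30th percentile on both arrays of any group were kept (18190). The 14 group means were fitted in limma 3.58.1 (R 4.3.3) under a trended variance prior. Each later time was tested against 0.25 h within a tissue, two-sided, with Benjamini-Hochberg adjustment within each contrast and a threshold of 0.05. A fold change on this scale understates changes of dim genes. Names came from the platform annotation (13513 probe sets with 1 gene, 503 with several, 8730 with none), and 13436 matched the TAIR10.1 gene table. The brightest probe set stood for a gene, picked before the filter, and the gene was not tested or ranked where that probe set did not pass it.

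The named genes are AT4G17470, the 9 next largest shoot rises, the 10 most alike over all group means and the 5 over shoot means, the measured family members and neighbours, and the 10 jasmonate genes with the largest changes among those called. The gene, the lists and this rule were chosen with earlier results of these data known. In data simulated for roots at 3 h, 200 of 18190 probe sets were changed. On the log2 scale of the tests, limma called 71% of changes of size 1 and 95% of those of size 2. Of its 174 calls, 4.6% were unchanged probe sets. That scale understates changes of dim genes, so these rates are not read for AT4G17470 in roots. Alternatives varied the pseudocount, filter, scaling, variance prior, arrays, replicate block and comparison time, and left out each array in turn. Where 1 array of a group remained, its spread was assumed equal to that of other groups. After seeing the data, fits that drop the 4 early shoot arrays (0.5 h and 1 h) or join them into 1 group were added.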

Additional observations from a re-analysis of the deposited data

Results flagged for a closer look

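At 4 times every AT4G17470 comparison of a later array with a 0.25 h array was above 0 in shoots and below 0 in roots. The root differences, -0.26 at 0.5 h, -0.24 at 1 h, -0.13 at 3 h and -0.16 at 24 h, did not pass limma's test (adjusted p from 0.82 to 0.97 over the root contrasts), and the tissue difference was not tested because the gene was chosen on its shoot values. All root signals of the gene were at most 1.22, under the pseudocount of 1.93, where a change was not detectable. The shoot change minus the root change was 3.24 at 0.5 h, 3.26 at 1 h, 8.07 at 3 h and 5.89 at 24 h on the log2 scale. The shoot change alone was 2.98, 3.02, 7.94 and 5.73 at these times, so no opposite response of the tissues is read from them.

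Of 18 other family, neighbouring and jasmonate genes, 8 passed limma's F test over the 6 shoot-minus-root differences, as did 28.7% of the 18190 probe sets. At its time of largest difference, PDF1.2b was 4.97 higher in shoots at 12 h (F test adjusted p = 2.8e-04, limma) and PDF1.2 was 3.46 higher in shoots at 12 h (F test adjusted p = 0.0014, limma). JMT differed by 3.25 at 3 h (F test adjusted p = 0.0081, limma). JRG21 differed by 2.01 at 12 h (F test adjusted p = 0.0036, limma) and AT2G38240 by 2.17 at 3 h (F test adjusted p = 0.0055, limma). AT1G52000 differed by 2.46 at 3 h (F test adjusted p = 0.022, limma). AT4G17486 differed by 0.63 at 6 h (F test adjusted p = 0.019, limma), and MYC4 by 0.63 at 0.5 h (F test adjusted p = 0.025, limma), where its signal fell in roots. The single differences of JRG21, AT2G38240, AT1G52000 and MYC4 at those times had limma adjusted p of 0.082, 0.098, 0.056 and 0.18, so for these genes the F test, and not the time named, carries the call.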

How the results depend on the processing

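The log2 differences of AT4G17470 in shoots from 0.25 h at 0.5, 1, 3, 6, 12 and 24 h became 1.5, 1.60, 6.02, 5.80, 4.64 and 3.88 with a pseudocount at the 30th percentile. Without a pseudocount they were 3.81 at 0.5 h and 8.86, 8.63, 7.44 and 6.64 from 3 h to 24 h. With quantile normalization they were 7.35, 7.17, 6.03 and 5.32 from 3 h to 24 h. With the first and last times averaged as the comparison they were 0.12, 0.16, 5.07, 4.84 and 3.66 up to 12 h. Leaving out 1 array each gave 2.53 to 3.43 at 0.5 h, 1.91 to 4.14 at 1 h, 7.83 to 8.05 at 3 h, 7.61 to 7.81 at 6 h, 6.22 to 6.83 at 12 h and 5.57 to 5.89 at 24 h. It remained the largest gene rise under the pseudocounts and scaling tried.

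In roots, the AT4G17470 difference at 12 h was 0.03 with that averaged comparison. With 1 array left out, the root differences were -0.31 to -0.22 at 0.5 h, -0.35 to -0.13 at 1 h, -0.25 to -0.00 at 3 h, -0.01 to 0.13 at 6 h, -0.14 to 0.05 at 12 h and -0.17 to -0.14 at 24 h, and the F test adjusted p was 0.90 to 1.0. The changes of sign were those without replicate 2 of 6 h (-0.01) and of 12 h (0.05), and no alternative gave a root call.

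The count of other family members higher in shoots was 1 in place of 2 without a pseudocount, without the filter and with the replicate block, and 1 to 2 with 1 array left out. The arrays that gave 1 were replicate 2 of 0.25 h and of 3 h and either replicate of 6 h and 12 h. Jasmonate genes lower in shoots numbered 1 without a pseudocount, 4 with that averaged comparison, and 1 to 2 with 1 array left out (1 without replicate 1 of 0.25 h or either array of 6 h). Those higher in roots numbered 2 to 6. By Spearman's rho 0 of the 10 most alike genes were shared. The causes were not tested. Replicate numbers did not pair the arrays: the deviations of equal numbers correlated above 0.1 in 4 of 91 pairs of groups (r from -0.58 to 0.20). Of 51 single-gene calls of the named family, neighbouring and jasmonate genes, 19 held under all alternatives and 0 reversed. The calls of MYC3 and of the root markers PYK10 and EXPA7 were not among these.

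Signals under about the 30th percentile, 11.3 to 15.2 units by array, have no stated background, which limits the 0.25 h shoot value and all root values of AT4G17470.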
